A study of Mus musculus with 8 samples.

Results

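The background of a chromatin immunoprecipitation experiment on the embryonic mouse forebrain was examined through its 5 control peak lists, 2 from goat IgG and 3 from input chromatin. The IgG lists held 149 and 182 peaks (replicates 1 and 2) and the input lists 138, 142 and 235 peaks (replicates 1, 2 and 3), 846 in all. Peaks that shared at least 1 bp were merged, which gave 638 control intervals among the 23163 intervals of all 8 lists of the series. Of the control intervals, 217 held only IgG peaks, 368 held only input peaks and 53 held peaks of both kinds. These are called IgG-only, input-only and shared intervals. Input had 1 list more than IgG, so the sizes of the first and second class are not a comparison of the controls.

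All libraries came from wild-type CD-1 embryos at E12.5 (embryonic day), with basal ganglia and septum microdissected and pooled from several embryos. All chromatin was crosslinked for 20 min with formaldehyde at 1.5%. The IgG libraries were precipitated with normal goat IgG, the input libraries had no antibody, and the 3 OTX2 libraries, used here only as a later reference, were precipitated with an antibody to the homeodomain factor OTX2. The labels give IgG controls for replicates 1 and 2 and none for replicate 3. Peak lists hold no expression values, so the labelled tissue could not be checked against marker genes, and read depth is unknown.

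An input library is fixed and sheared chromatin sequenced without enrichment, and its local excesses reflect how chromatin breaks and how reads map. An IgG library passes the same chromatin over an antibody with no intended target, so it adds what sticks to beads and immunoglobulin. Repeated or collapsed stretches of a genome assembly and mitochondrial DNA are known for high read depth in both kinds of control, and peak lists are often cleared of such places.

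The IgG and input lists were of like length and like width. The log10 peak number was 2.22 ± 0.06 (SD, n = 2) for IgG and 2.22 ± 0.13 (SD, n = 3) for input, a ratio of geometric means of 0.990. An exact permutation test between libraries (two-sided) gave p = 1.0, where 2 against 3 libraries allow no p below 0.2. Without input replicate 3, whose track name differs from those of the other control lists, the ratio was 1.18. Median peak widths were 159 and 148 bp in IgG replicates 1 and 2, and 151.5, 151 and 143 bp in input replicates 1, 2 and 3 (exact permutation p = 0.6). The length under peaks differed more between replicates than between kinds: 104.0 and 51.8 kb for IgG, and 78.9, 42.0 and 94.3 kb for input (exact permutation p = 0.8 on the log10 scale). In both kinds replicate 2 covered the least. After Benjamini-Hochberg adjustment over 6 measures compared in this way, every adjusted p was 1.0. The labels do not say whether replicates came from separate litters, so these p-values measure only the spread between these libraries.

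A minority of peaks in every control list lay in a shared interval. Shared intervals took 30.9% of the peaks of IgG replicate 1 (exact 95% interval 23.6 to 39.0%) and 34.6% of IgG replicate 2 (27.7 to 42.0%). The values for input replicates 1, 2 and 3 were 31.9% (24.2 to 40.4%), 32.4% (24.8 to 40.8%) and 20.9% (15.8 to 26.6%). The numbers behind these percentages were close, at 46 and 63 IgG peaks and 44, 46 and 49 input peaks, and the low share of input replicate 3 belonged to the longest list. The groups overlapped and the difference did not pass (exact permutation p = 0.6). The input mean was 28.4% with input replicate 3 and 32.1% without it, beside 32.7% for IgG. By length, shared intervals weighed more: they held 84.8% and 65.2% of the summed peak width of IgG replicates 1 and 2, and 81.0%, 62.4% and 71.2% of that of input replicates 1, 2 and 3.

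**Figure D1:**
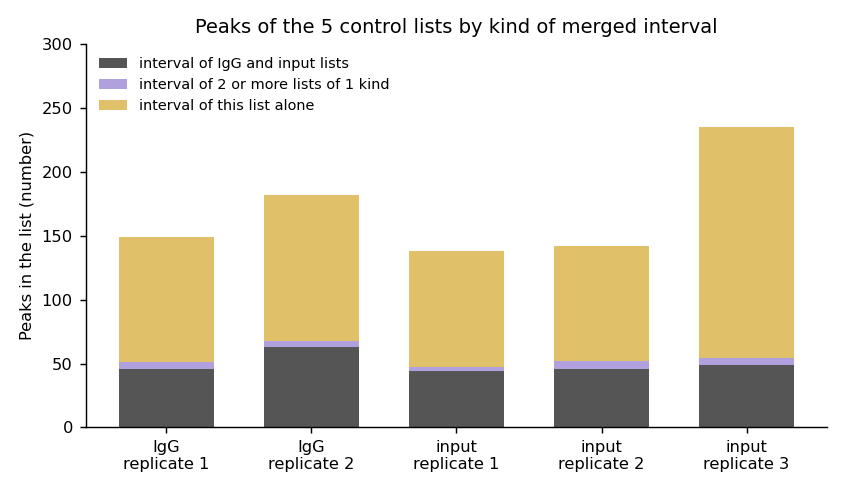
Stacked bars give the number of peaks of each control list that lay in an interval of IgG and input lists, in an interval of 2 or more lists of 1 kind, or in an interval of that list alone. Each list held between 44 and 63 peaks in shared intervals, and the largest part of every list, from 90 to 181 peaks, was found in no other control list.

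The overlap among lists of the same kind was close to that between kinds. The overlap of a pair of lists was taken as the mean of the shares of peaks overlapped in each direction. It averaged 21.9% over the 4 same-kind pairs (19.2 to 26.1%) and 21.0% over the 6 IgG and input pairs (18.8 to 24.8%), a difference of 0.90 percentage points (exact one-sided permutation test, p = 0.3, smallest possible 0.1). The IgG pair had the highest overlap, 26.1%, followed by IgG and input of replicate 1 with 24.8%. The lowest was that of IgG and input of replicate 2 with 18.8%, so a common replicate number went with both a high and a low value. Leaving out IgG replicate 2 took away the IgG pair, so the same-kind mean rested on input pairs alone. The difference was then -1.98 percentage points.

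Peaks shared between lists were the better-ranked ones. The authors ranked the peaks within each list, and the sources used here do not name the ranked quantity. In the best-ranked 20% of a list, 96.6% and 94.4% of the peaks of IgG replicates 1 and 2 lay in an interval with another control list, as did 92.6%, 85.7% and 89.4% of those of input replicates 1, 2 and 3. In the last 20% the shares were 10% and 2.70% for IgG and 0%, 0% and 2.13% for input. Input replicate 3 fell earliest, to 19.1% in the second 20%, where the other lists stood between 50% and 71.4%. The 10 best-ranked peaks held 9 and 10 in shared intervals in the IgG lists and 8, 9 and 10 in the input lists. Better-ranked peaks were also wider: across the peaks of a list, Spearman's rho of rank with width was -0.73 and -0.65 in IgG and -0.64, -0.49 and -0.49 in input. Peaks of a list are not independent, and wide peaks are more easily overlapped.

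**Figure D2:**
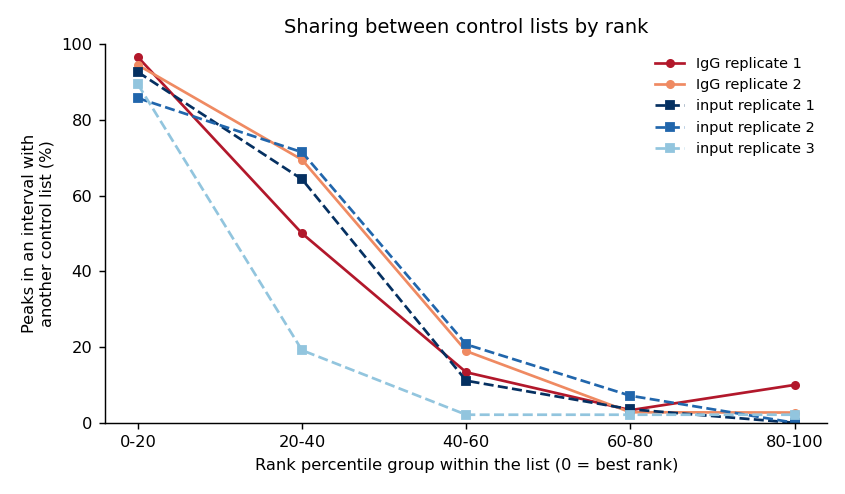
The share of peaks (%) in an interval with another control list is plotted against the rank percentile group within the list, with solid lines for IgG and dashed lines for input. All 5 lists start between 85.7% and 96.6% and end between 0% and 10%, with the lines of both kinds crossing.

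The IgG-only and input-only intervals looked alike. Their median widths were 142 bp (interquartile range 132 to 161 bp) and 143.5 bp (135.75 to 153 bp). An interval took the rank of its best peak in each list, here and wherever interval ranks are given. Its rank percentile was averaged over the lists that held it, and low values are better-ranked. Wide intervals can hold several peaks of a list (the widest held 23 peaks in all), which by itself favours a better rank. Its median was 65.9 for IgG-only and 64.2 for input-only intervals, against 17.6 for shared ones. Shared intervals had a median width of 1020 bp (286 to 2246 bp) and made up 127.5 of the 217.6 kb in all control intervals. Merging itself widens an interval that several lists hold. Of the 638 intervals, 574 were found in 1 list, 212 of them in an IgG list and 362 in an input list.

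**Figure D3:**
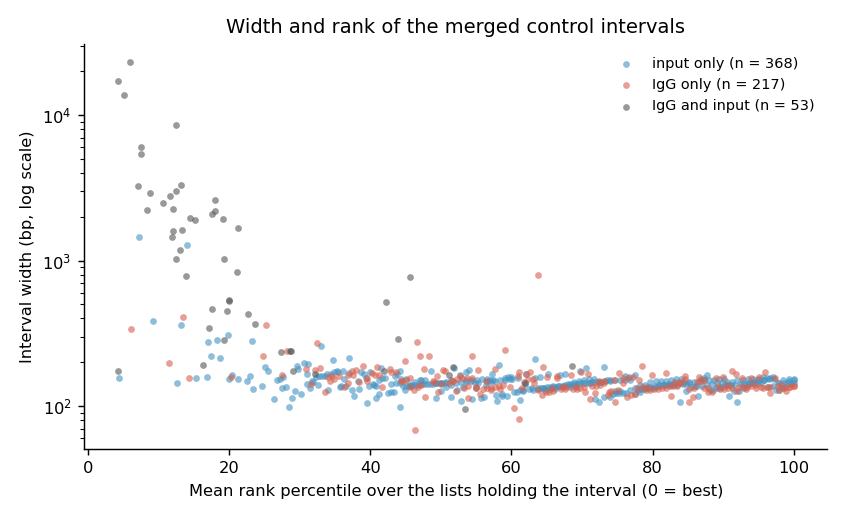
Each point is a merged control interval, placed by its mean rank percentile (0 = best) and its width in bp on a log scale, in 1 colour for each class. Shared intervals fill the upper left, and the IgG-only and input-only intervals form 1 common band near their median widths of 142 and 143.5 bp.

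By chromosome class, 632 control intervals lay on placed chromosomes, 5 on unplaced sequence and 1 on mitochondrial DNA. The mitochondrial interval, from 15867 to 16041 (all positions are mm9), was found in all 5 control lists. The noncoding control region of mouse mitochondrial DNA lies near the end of its standard numbering. Its peak was ranked 1 in input replicates 1 and 2, 4 in input replicate 3, and 24 and 4 in IgG replicates 1 and 2. It was 175 bp wide in input replicate 1 and between 93 and 101 bp in the other control lists. Of the OTX2 lists, replicate 1 alone had a peak there, ranked 466. Of the unplaced intervals, 3 were IgG-only, 1 was input-only and 1 was shared. The shared one, on chrUn_random from 45219 to 45456, was ranked 35 and 79 in IgG replicates 1 and 2 and 46 in input replicate 3, and no OTX2 list overlapped it. Of the 5 unplaced intervals, 2 were overlapped by an OTX2 list, replicate 3 alone, beside 90 of the 632 placed intervals (14.2%). Chromosome Y had no peak in any list.

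Of the 53 shared intervals, 15 were in all 5 lists, 16 in 4, 8 in 3 and 14 in 2. Chromosome 2 held 21 of them, chromosomes 1 and X 8 each, and chromosome 7 held 7. Peaks were joined when within 100 kb, and 5 loci had at least 3 peaks in every control list. These 5 loci held 42 of the 53 (79.2%), against 6.91% of the IgG-only and 5.98% of the input-only intervals. The rule picks places where IgG and input peaks lie together, so this contrast follows in part from the rule.

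The 5-list intervals were led by one on chromosome X from 166408250 to 166425484, ranked 6 and 1 in IgG replicates 1 and 2 and 7, 2 and 24 in input replicates 1, 2 and 3. Next after the mitochondrial interval came 2 on chromosome 2. The interval from 77742682 to 77756507 was ranked 1 and 17 in IgG and 2, 17 and 5 in input. The interval from 77759359 to 77782367, the widest of all control intervals at 23009 bp, was ranked 5 and 14 in IgG and 3, 23 and 1 in input. On chromosome 2 replicate 2 thus had the poorer ranks in both kinds of control. A further 4 of the 15 lay on chromosome 2, starting at 77844318, 77858782, 77725280 and 77789002, and there too replicate 2 had a poorer rank than replicate 1 in IgG and in input.

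On chromosomes 7 and X the order was the other way. The chromosome 7 interval from 38972638 to 38975533 was ranked 13 and 5 in IgG replicates 1 and 2, and 25, 3 and 28 in input replicates 1, 2 and 3. Another from 38963329 to 38965574 was ranked 22 and 3 in IgG and 30, 14 and 29 in input, and the one from 38984651 to 38986336 was ranked 34 and 23 in IgG and 40, 4 and 92 in input. On chromosome X the interval from 123302960 to 123305743 was ranked 17 and 6 in IgG and 37, 10 and 23 in input, and its neighbour from 123299937 to 123301377 was ranked 20 and 7 in IgG and 38, 5 and 27 in input. At each of these 5 intervals replicate 2 ranked better than replicate 1 in both kinds. The last 2 intervals were the only shared intervals on their chromosomes. That on chromosome 17 from 36368125 to 36368550 was ranked 36 and 32 in IgG and 41, 32 and 45 in input, and that on chromosome 9 from 123782119 to 123782353 was ranked 40 and 54 in IgG and 58, 20 and 57 in input.

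The replicate difference was plain in the cover of the chromosome 2 locus, which spanned 157.5 kb from 77707714 to 77865190. IgG replicate 1 covered 39.2% of it with 20 peaks of median width 1474 bp, and IgG replicate 2 covered 9.16% with 37 peaks of median width 211 bp. Input replicates 1, 2 and 3 covered 27.3%, 5.84% and 34.0%, with median widths of 1394, 177 and 1941 bp. OTX2 replicates 1, 2 and 3 covered 25.6%, 6.40% and 48.6%. Replicate 2 was the lowest of its kind in IgG, input and OTX2 alike. IgG and input overlapped there, with means of 24.2% ± 21.3 (SD, n = 2) and 22.4% ± 14.7 (SD, n = 3; exact permutation p = 0.8, adjusted over 5 loci 1.0). Read depth is unknown, and its part in this difference was not tested.

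At 2 of the 5 loci the kinds of control did not overlap. The chromosome X locus from 123299937 to 123312933 was covered to 26.9% and 21.9% by IgG replicates 1 and 2, and to 7.19%, 9.33% and 8.89% by input replicates 1, 2 and 3. The widest peaks there were 2698 and 1432 bp in IgG and between 438 and 463 bp in input, and those IgG peaks lay in different intervals of the locus. OTX2 replicates 1, 2 and 3 covered 6.55%, 13.7% and 17.9%. The chromosome 1 locus from 173448272 to 173509993 was covered to 4.80% and 4.10% by IgG and to 1.72%, 2.90% and 2.30% by input. Both differences had p = 0.2 in the exact two-sided permutation test, the smallest that 2 against 3 libraries allow, and an adjusted p of 0.5 over the 5 loci. At the chromosome 7 locus from 38960826 to 38986336 IgG covered 29.9% and 15.9% and input 23.3%, 22.9% and 15.0%. At the distal chromosome X locus from 166408250 to 166442982 IgG covered 35.3% and 27.0% and input 38.8%, 28.8% and 18.1%. At both of these places the kinds overlapped. Outside the 5 loci, a chromosome 13 locus with peaks in every control list, from 120277687 to 120284149, had IgG below input. IgG covered 3.47% and 15.4% of it, and input 18.9%, 20.3% and 21.7%. At such a locus on chromosome 1 from 31848933 to 31851274 IgG covered 9.44% and 21.6%, and input 8.20%, 6.79% and 5.76%. At the remaining loci with peaks in every control list the kinds overlapped. Loci outside the 5 were not tested.

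**Figure D4:**
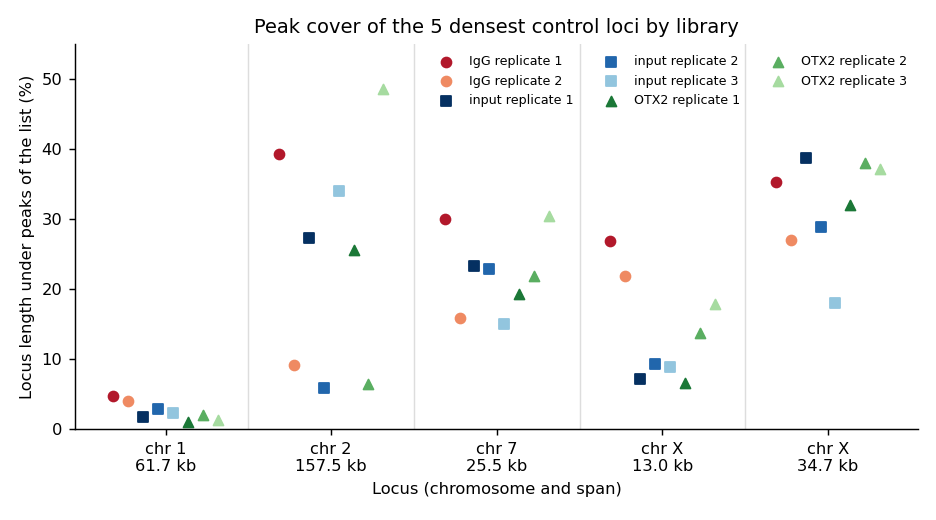
For each of the 5 loci with at least 3 peaks in every control list, points give the length under peaks of a list (%). Circles mark IgG, squares input and triangles OTX2. At the 157.5 kb locus replicate 2 is lowest in each kind (9.16%, 5.84% and 6.40%), and at the 13.0 kb locus both IgG points (26.9% and 21.9%) lie above the input points.

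Intervals that recurred within 1 kind of control lay mostly in the same neighbourhoods as the shared ones. Only 5 IgG-only intervals were in both IgG lists, and 4 of them lay within 100 kb of a shared interval. The best-ranked was on chromosome 13 from 120283741 to 120284149 (ranks 28 and 15 in IgG replicates 1 and 2). The others were on chromosome 1 from 173484138 to 173484414 (ranks 76 and 77) and 3 on chromosome X, namely 166442869 to 166442982 (72 and 108), 132808245 to 132808421 (63 and 124) and 123312852 to 123312933 (120 and 76). That starting at 132808245 was the 1 with no shared interval near it. Input-only intervals in 2 or more lists numbered 6, and all 6 lay within 100 kb of a shared interval. The 2 found in all 3 input lists were on chromosome 1 from 173470783 to 173471143 (ranks 34, 8 and 22) and on chromosome X from 123312286 to 123312428 (59, 74 and 89). The latter lay next to the IgG-only interval that starts at 123312852.

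The best-ranked intervals of the 1-kind classes were in those loci as well. Among IgG-only intervals these were, besides the chromosome 13 interval, one on chromosome 2 from 77835079 to 77835415 (rank 9 in IgG replicate 1) and one on chromosome 7 from 38978195 to 38978391 (rank 21 in IgG replicate 2). Among input-only intervals they were on chromosome X from 166439172 to 166439328 (rank 6 in input replicate 1), on chromosome 2 from 77832183 to 77833634 (rank 10 in input replicate 1) and on chromosome 2 from 77842600 to 77842984 (rank 13 in input replicate 2). Within 100 kb of a shared interval lay 18 of 217 IgG-only intervals (8.29%) and 25 of 368 input-only intervals (6.79%). Their median rank percentiles were 29.5 and 28.9, against 69.1 and 66.4 for the 199 and 343 farther away.

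Some places held peaks of several lists without a common base. Joined within 100 kb, control peaks formed 511 loci, of which 29 held both kinds, and 13 of these 29 held no shared interval. A locus on chromosome 1 from 90086456 to 90182536 held 11 peaks, with 2 and 3 from IgG replicates 1 and 2 and 1, 4 and 1 from input replicates 1, 2 and 3, and no IgG peak overlapped an input peak. On chromosome 17 from 30596105 to 30736326, control peaks likewise stood apart from each other. They were 4 of IgG replicate 1, 2 of input replicate 1 and 3 of input replicate 3. OTX2 replicates 1, 2 and 3 had 3, 1 and 11 peaks in that stretch, and replicate 3 was the longest list with 22325 peaks. In the chromosome 1 stretch the OTX2 lists had 2, 3 and 0 peaks. These 2 loci were chosen after their values were seen.

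The classes were then set against the OTX2 lists. Of all 638 control intervals, 93 (14.6%) were overlapped by at least 1 OTX2 list. Among shared intervals the count was 45 of 53 (84.9%, exact 95% interval 72.4 to 93.3%), among input-only intervals 34 of 368 (9.24%, 6.48 to 12.7%) and among IgG-only intervals 14 of 217 (6.45%, 3.57 to 10.6%). These intervals cover counting error only, and neighbouring peaks share a locus. Recurrence rose with the number of control lists, from 41 of 574 intervals (7.14%) in 1 list to 15 of 23 (65.2%) in 2, 7 of 10 (70.0%) in 3, 15 of 16 (93.8%) in 4 and 15 of 15 in all 5. Intervals held by more lists were also wider, with medians of 143 bp in 1 list and 2784 bp in 5. Counted once for each locus joined within 100 kb, 14 of the 16 loci with a shared interval had a control peak that an OTX2 peak overlapped (87.5%), and 2 of the 13 loci that held both kinds without a shared interval (15.4%).

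The OTX2 lists differed in which class they met. OTX2 replicates 1, 2 and 3 overlapped 7.52%, 7.05% and 8.31% of all control intervals. Of the shared intervals they overlapped 36 (67.9%), 33 (62.3%) and 17 (32.1%). Of the IgG-only intervals they overlapped 6, 5 and 7 (2.76%, 2.30% and 3.23%), and of the input-only intervals 6, 7 and 29 (1.63%, 1.90% and 7.88%). OTX2 replicate 3, the longest and widest list, was the only OTX2 list at 23 of the 34 recurring input-only intervals and at 5 of the 14 recurring IgG-only ones, and at none of the 45 shared ones. Without it, recurrence was 2.99% for input-only and 4.15% for IgG-only intervals, so the order of the 1-kind classes turned. It turned in 6 of 18 alternative settings in all. In 200 bp windows at peak centres recurrence was 8.0% for IgG-only and 6.07% for input-only intervals, and in the better-ranked 50% of the control lists 23.1% and 16.5%. With the replicate number as a block, intervals were merged within replicate 1 and within replicate 2. Recurrence was then 8.58% for IgG-only and 7.08% for input-only intervals. Without input replicate 3 it was 10.8% and 10.1%, and with OTX2 lists of equal length 3.69% and 3.26%. Without IgG replicate 1, where the order held, the values were 11.3% and 11.9%.

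**Figure D5:**
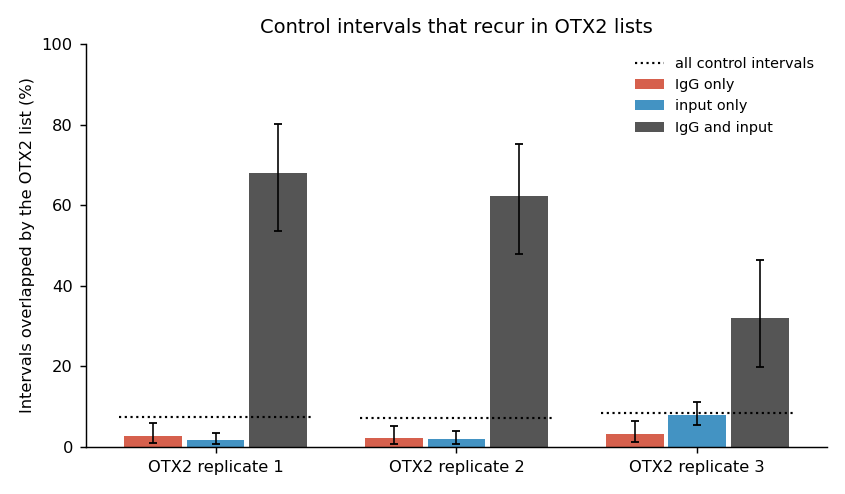
Bars give the share of each class of control interval (%) that a list of OTX2 peaks overlapped, with exact 95% binomial intervals, and the dotted line marks the share over all 638 control intervals. Shared intervals stand highest in each OTX2 list (67.9%, 62.3% and 32.1%), and the input-only bar is higher in replicate 3 (7.88%) than in replicates 1 and 2.

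Seen from the OTX2 lists, peaks in shared intervals numbered 51 of 1848 in replicate 1 (2.76%), 52 of 1298 in replicate 2 (4.01%) and 14 of 22325 in replicate 3 (0.063%). Peaks in IgG-only intervals numbered 6, 5 and 7 (0.325%, 0.385% and 0.031%), and in input-only intervals 6, 7 and 28 (0.325%, 0.539% and 0.125%). Peaks of replicate 3 were wider, with a median of 827 bp against 191 and 182 bp, so 1 peak can meet several intervals. At the chromosome 2 locus, 30, 29 and 5 peaks of replicates 1, 2 and 3 covered 25.6%, 6.40% and 48.6%. Shares of peaks are therefore not comparable between replicate 3 and the other lists. The best OTX2 ranks in shared intervals were 46, 66 and 1179. All 15 intervals found in 5 control lists were met by OTX2 replicate 1, 13 of them by replicate 2 and 11 by replicate 3. The 8 shared intervals that no OTX2 list met were held by 2 to 4 control lists, and 3 of them lay at the chromosome 1 locus.

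Away from shared intervals, recurrence was low in every control library. Among intervals of 1 list that were over 100 kb from a shared interval, OTX2 lists overlapped 3 of 93 and 3 of 105 for IgG replicates 1 and 2 (3.23% and 2.86%). For input replicates 1, 2 and 3 they overlapped 4 of 86, 4 of 81 and 15 of 176 (4.65%, 4.94% and 8.52%). All input values were above both IgG values (exact two-sided permutation p = 0.2, the smallest possible, adjusted p = 1.0). This order rested on OTX2 replicate 3: OTX2 replicates 1 and 2 alone overlapped 1.08% and 0.95% for IgG replicates 1 and 2, and 0%, 0% and 1.14% for input replicates 1, 2 and 3. The highest value with all OTX2 lists was that of input replicate 3, and the longest OTX2 list was that of OTX2 replicate 3.

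For each 1-kind class, the 5 intervals whose OTX2 peak had the lowest rank percentile in its own list were examined. OTX2 lists held from 1298 to 22325 peaks, so a percentile admits larger rank numbers from the longest list, and by raw rank other intervals would be named. Of the 5 input-only intervals, 4 were far from any shared interval, between 129 and 150 bp wide, and met OTX2 replicate 3 alone. They lay on chromosome 13 from 84923699 to 84923848 (rank 66 in input replicate 1, OTX2 rank 288), on chromosome 16 from 16559479 to 16559620 (rank 88 in input replicate 2, OTX2 rank 422), on chromosome 18 from 63027971 to 63028099 (rank 145 in input replicate 3, OTX2 rank 541) and on chromosome 3 from 6887581 to 6887723 (rank 117 in input replicate 3, OTX2 rank 870). The fifth was the chromosome 2 interval from 77832183, which met rank 59 of OTX2 replicate 1. Of the 5 IgG-only intervals, those on chromosomes 2, 7 and 13 (the last from 120279123 to 120279278) lay within 100 kb of shared intervals. They met OTX2 replicate 1 at ranks 298, 351 and 303, and the chromosome 13 interval also met rank 563 of OTX2 replicate 2. The interval on chromosome 9 from 41419395 to 41419541 (rank 92 in IgG replicate 1) met rank 1480 of OTX2 replicate 3, and that on chromosome 6 from 6819447 to 6819621 (rank 68 in IgG replicate 2) met ranks 871 and 4221 of OTX2 replicates 2 and 3.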

How the data were processed

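The study deposited 1 peak list per library for 2 IgG, 3 input and 3 OTX2 libraries. The deposited lines hold positions and a rank, per the file headers and the lines themselves. BWA, MACS 1.4 and the build mm9 are named in the submitters' processing notes, with no role or setting. The sources used here do not give the caller's control, threshold or filters, nor read depth. The rank was read as an order within a list or, divided by the list's length, as a percentile. Reads were single, of 50 bp, per the labels' protocols. The track names of both libraries numbered replicate 3 differ from the other 6, so values without input replicate 3 are given too.

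Intervals were merged and compared in Python 3.11.15 (numpy 2.4.6, scipy 1.17.1), and 35 directed overlaps and the merged count were identical with bedtools 2.31.1. The functions were tested on simulated lists. The 95% intervals given with some percentages are exact Clopper-Pearson intervals. Libraries were compared by exact permutation. No mm9 genome or annotation was used here, so no interval has a gene or a sequence.

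Named were intervals in all 5 control lists, those in both IgG or all 3 input lists, the 3 best-ranked of each class, the best-ranked 3 peaks of each control list (all in shared intervals) and, for IgG-only and input-only intervals, the 5 whose OTX2 peak had the lowest rank percentile in its list. The classes and rules were chosen with earlier results of these data known. The replicate number was tried as a block. Other alternatives were the overlap rule, the joining distance, list length, placed chromosomes and leaving out each library.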

Additional observations from a re-analysis of the deposited data

How the results depend on the processing

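Of 114 recomputed values of 8 results, 78 stayed within the spread or interval of the reported value or kept its direction. A further 30 moved outside that spread or interval, and 6 reversed direction. The spread, used for the shares of IgG and of input peaks overlapping the other kind, was the SD between the 2 IgG or 3 input lists. For IgG, 29.6% against 31.1% therefore counted as moved. The other shares were judged by the exact 95% interval of the reported value. For the ratio of peak numbers and the same-kind excess in overlap only direction was judged. An excess of 0.0018 percentage points with joining within 1 kb thus counted as kept.

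The ratio of IgG to input peak numbers (0.990) was 0.896 to 1.18 with 1 library left out. Labels do not say that a replicate number marks common chromatin. With the replicate block, pairing IgG and input within replicates 1 and 2, it was 1.18 (exact p = 0.5, the smallest 2 pairs allow). The share of IgG peaks overlapping an input peak was 19.0%, and shared intervals were 11.4% of all (62 of 542). In the block each IgG list met 1 input list in place of 3, and intervals were merged within each replicate. These 2 shares therefore rest on fewer lists and other intervals than the main values. Over the 11 loci in all 5 lists, the log2 ratios of replicate 1 to 2 in cover had the same sign in IgG and input at 7 (Pearson r = 0.62 across loci, a description).

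The share of IgG peaks overlapping an input peak (31.1%) was 29.6% with an overlap of 50% of the shorter peak, 22.7% in 200 bp windows, 36.3% and 46.5% with joining within 1 and 100 kb, 56.4% in the better-ranked 50% of lists, 36.6% in lists of equal length, and 25.1 to 31.9% with 1 library left out. The share of input peaks overlapping an IgG peak (26.4%) was 16.5% in 200 bp windows, 38.4% with joining within 100 kb, 49.0% in the better-ranked 50%, and 18.3 to 31.4% with 1 library left out. Shared intervals (8.31% of all) were 5.68% with joining within 100 kb and 19.5% in the better-ranked 50%. The same-kind excess in overlap (0.90 points) was -1.44 in 200 bp windows, -0.84 with joining within 100 kb, and -1.98 to 3.16 with 1 library left out. With an IgG list left out, no IgG pair remained.

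Recurrence in OTX2 lists for IgG-only intervals (6.45%) was 3.47% with joining within 100 kb, 3.69% with OTX2 lists of equal length, 23.1% in the better-ranked 50%, 4.15 to 11.3% with 1 library left out, and 3.52% over 100 kb from a shared interval, an alternative chosen after seeing the data. For input-only intervals (9.24%) it was 6.07% in 200 bp windows, 16.5% in the better-ranked 50%, 3.26% with OTX2 lists of equal length and 2.99 to 11.9% with 1 library left out. For shared intervals (84.9%) it was 63.9% in 200 bp windows and 67.9 to 91.3% with 1 library left out. Joining within 100 kb changes the class itself, and of the 29 loci with both kinds, 13 of them without a shared interval, 55.2% recurred. The cause of these differences was not tested. Read depth is unknown, so what it limits cannot be given.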
